A study of Saccharomyces cerevisiae with 11 samples.

Results

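Replicative aging of budding yeast was followed here through 7 genes that move zinc into the cell or the vacuole, or are controlled by zinc. They were ZRT1 (YGL255W), ZRT2 (YLR130C), ZRT3 (YKL175W), ZAP1 (YJL056C), ZRC1 (YMR243C), COT1 (YOR316C) and ZPS1 (YOL154W). They were chosen by their known roles and found by their reading frame names, and all 7 are among the 6668 coding sequences counted. This choice, and that of the gene lists below, was made with earlier results of these data known. RNA-Seq libraries were made from Young, Middle and Aged cells (2 each), and ribosome footprint libraries from Young and Middle cells (2 each) and Aged cells (1). All cells were of the diploid strain BY4743, labeled wild type, which lacks HIS3, LEU2 and URA3 and has a single working copy of LYS2 and of MET15. They grew at 25 °C in synthetic medium with casamino acids, glucose and mannose. Young cells were the unbeaded daughters left in the supernatant after 13 h of batch culture, Middle cells the biotinylated mothers pulled from that culture with streptavidin beads, and Aged cells beaded mothers held for another 24 h in the MAD vessel, a small chemostat with a magnet. Aged cells thus differed from Young cells in age, in the beads and in the vessel with its flow of fresh medium, and these cannot be told apart. Middle cells differed from Young cells in age and in the biotin and beads, and Aged from Middle cells in age and in the vessel. These cannot be told apart either. The zinc in the medium or in the cells was not measured.

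Zinc is a cofactor of many enzymes and of zinc-finger proteins, and yeast keeps its free level low and steady. Zrt1 is the high-affinity and Zrt2 the low-affinity zinc importer of the plasma membrane. Zap1 is the transcription activator that senses zinc: when zinc is scarce it binds zinc-responsive elements and activates ZRT1, ZRT2, ZRT3, ZRC1, ZPS1 and its own gene. When zinc is plentiful this activation by Zap1 is low. ZRT2 is a special case, because under severe scarcity Zap1 represses it. Zrc1 and Cot1 load zinc into the vacuole, and Zrt3 releases it again. Zps1 is a putative GPI-anchored protein of the cell surface whose gene is induced when zinc is low.

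The sequences of the zinc-responsive elements are shown because Zap1 is what 6 of the 7 genes are known to share. The element, read as ACCTT, any base and AAGGT and thus alike on both strands, was searched in the 500 bases before each start codon in the S288C genome (R64, RefSeq). It was found without a mismatch before ZRT1, and with at most 1 mismatch at its 10 fixed positions before 6 of the 7 genes. At most 1 mismatch was found before 118 of 6019 protein-coding genes, or 1.96%. Only 4 of those genes had 2 such matches, namely ZRT1, ZRT2, ZPS1 and RTT109. The element was described from promoters that include those of zinc genes, so these matches are a description and no test. Each site is given on the strand of its gene with the 11 bases of the element in capitals.
ZRT1 distal: ccaaagatACCCTCAAGGTtctcatct
ZRT1 proximal: catatttgACCTTGAAGGTcatggaaa
ZRT2 distal: gggacataACCCTAAAGGTtatatgcg
ZRT2 proximal: ttttcacaACCTTTAGGGTacattgcc
ZRT3: tgacaacaACCTTAAGGGTaatggact
ZAP1: agtcatctACCCTAAAGGTcatgatga
ZRC1: ttcagatgGCCTTGAAGGTgaggaatg
ZPS1 distal: tataattgACCTTCAGGGTtaggaccc
ZPS1 proximal: gggttaggACCCTGAAGGTtttttgta
Counted from 1 at the 5′ end of the element, the substitution was T4C at the distal ZRT1 and ZRT2 sites, the ZAP1 site and the proximal ZPS1 site. It was A8G at the proximal ZRT2, the ZRT3 and the distal ZPS1 sites, and A1G before ZRC1. The ZRT1 sites lie at chrVII:20659-20669 and chrVII:20774-20784, the ZRT2 sites at chrXII:404363-404373 and chrXII:404314-404324 and the ZRT3 site at chrXI:118638-118648. The ZAP1 site lies at chrX:333207-333217, the ZRC1 site at chrXIII:756330-756340 and the ZPS1 sites at chrXV:34329-34339 and chrXV:34344-34354. None lies within the coding sequence of any of the 7 genes. The coding sequences themselves are at chrVII:20978-22108 (ZRT1, plus strand), chrXII:402794-404062 (ZRT2, minus), chrXI:118793-120304 (ZRT3, plus), chrX:330431-333073 (ZAP1, minus), chrXIII:754838-756166 (ZRC1, minus), chrXV:906236-907555 (COT1, minus) and chrXV:34658-35407 (ZPS1, plus). The 500 bases before COT1 held no match, which says only that these letters are not in that window.

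**Figure D1:**
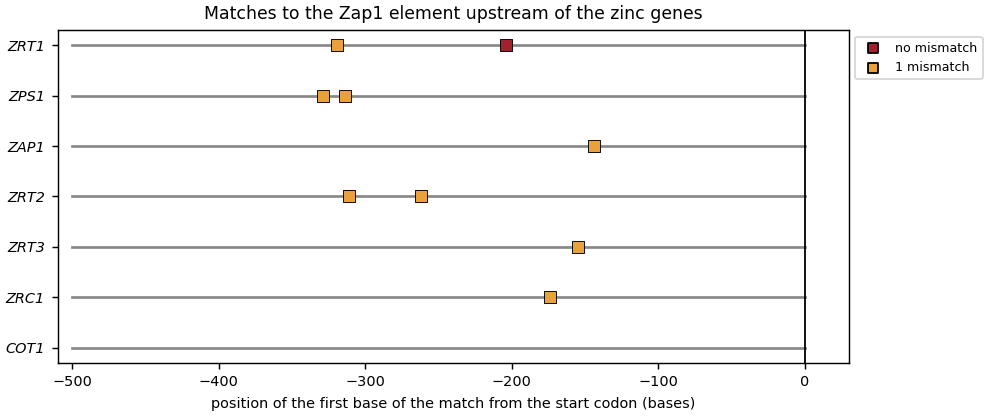
Matches to the Zap1 element in the 500 bases before the start codon of each zinc gene. The horizontal axis is the position of the first base of a match from the start codon, and colors give the number of mismatches; matches lie from −329 to −144 in 6 genes, and the COT1 line is empty.

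The 6 RNA-Seq libraries held 476704 to 2585717 counts and the 5 footprint libraries 168247 to 965156. A signal of 3 counts, taken as the floor of detection and covering counting error only, was worth 1.10 to 7.15 CPM in RNA-Seq and 3.18 to 18.7 CPM in footprints. Levels are given in CPM, which scale each library's counts to the same total, with edgeR's TMM factors within each assay. Each of the 7 genes passed the filter on low counts in every comparison, none overlaps another annotated gene, and no stretch of 28 bases in any of them occurs elsewhere in the genome. The paralogs ZRC1 and COT1 were 73% identical over 1224 aligned bases of coding sequence, and ZRT1 and ZRT2 were 72.1% identical over 1029. Two-sided quasi-likelihood tests of edgeR compared the ages, with Benjamini-Hochberg adjustment over the whole table, and a gene was called at an adjusted p under 0.05. Groups of 2 libraries lay apart for many genes. In RNA, 28.4% of all genes tested were wholly higher in Middle than in Young cells and 29.0% wholly lower. The shares were 29.8% and 28.6% for Aged over Young cells, and 28.4% and 28.7% for Aged over Middle cells. In Middle over Young footprints they were 29.1% and 27.7%. A lack of overlap is thus given below as a description. Middle and Aged cells were compared with the same Young libraries, so the changes of one age are not independent of those of the other. The Young fraction was checked against 10 genes of daughter cells and cell separation. Their summed RNA was 1176 and 543 CPM (Young), 1304 and 747 (Middle) and 1705 and 1654 (Aged), none of the 10 was at 0, and DSE1, CTS1 and AMN1 were called higher and none lower in Aged than in Young cells, calls that were lost without the second Young library (adjusted p of 0.053 to 0.10). Of all genes tested, 8.34% were higher and 5.14% lower in that comparison. The 10 genes were thus not highest in the Young fraction, and their part in the results below was not tested. In such bulk samples fewer cells of a kind and less RNA per cell cannot be told apart, and p-values measure the spread of 2 biological replicates.

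Per kilobase of coding sequence, ZRT1 and ZPS1 were the most abundant of the 7 genes in Young RNA, at 380 ± 245 and 318 ± 240 CPM per kb (SD, n = 2). ZRT3 followed at 104 ± 48.9 CPM per kb, while ZRC1 (49.9 ± 4.50), ZAP1 (48.0 ± 0.32), COT1 (45.7 ± 20.3) and ZRT2 (39.6 ± 9.48) were lower. In this order ZRC1 lay below ZRT3 by more than their spread, and no other neighbors differed beyond it. Over all 6668 coding sequences, ZRT1 stood at percentile 96.2 of Young RNA per kilobase and ZRT2 at percentile 39.6. In Middle cells ZRT1 (174 ± 157), ZPS1 (167 ± 143), ZRT3 (131 ± 44.2) and ZRT2 (116 ± 27.4) lay within their spread of each other. COT1 (70.2 ± 2.62), ZRC1 (56.9 ± 7.80) and ZAP1 (39.6 ± 16.0 CPM per kb) had lower means. ZRT3 and ZRT2 lay above these by more than the spread, but ZRT1 and ZPS1 did not. In the first Middle library ZRT1 (62.8) and ZPS1 (66.2 CPM per kb) were below COT1 (72.1). In Aged cells ZRT2 was at 154 ± 23.7 CPM per kb (percentile 81.2), ZPS1 at 95.9 ± 12.8, ZRC1 at 90.9 ± 17.2, ZRT3 at 89.3 ± 23.3, ZRT1 at 60.4 ± 34.4 (percentile 56.8), COT1 at 60.1 ± 6.12 and ZAP1 at 27.1 ± 0.44 (SD, n = 2 each). ZRT2 was above and ZAP1 below its neighbor by more than their spread, and the genes between did not differ so. The 2 importers had exchanged places, with ZRT1 above ZRT2 in both Young libraries and below it in both Aged libraries.

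Importers of the plasma membrane changed in opposite directions with age. ZRT1 RNA was at 228 and 609 CPM in Young, 69.1 and 313 CPM in Middle and 39.8 and 93.3 CPM in Aged cells. The Aged libraries lay below both Young libraries, and the Middle libraries overlapped both other ages. Of each age, the library titled 2 had the higher ZRT1 level, and the same was true of Young and Middle footprints. Those libraries were also the deeper of their groups, and the part of depth in the result was not tested. ZRT1 RNA fell in Aged cells to a level 6.08-fold lower than in Young cells (log2 fold change −2.60, SE 0.50, adjusted p = 0.00771). Without the second Young library the log2 fold change was −1.72 and no longer past the test (edgeR, adjusted p = 0.12). In Middle cells it was −1.08 (95% interval −2.54 to 0.37, adjusted p = 0.34), and it ran between −2.62 and −0.20 as each library was left out in turn, past the test only without the second Middle library (edgeR, adjusted p = 4.8e-04).

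ZRT2 RNA was at 57.3 and 40.7 CPM in Young, 119 and 167 CPM in Middle and 170.5 and 212 CPM in Aged cells. The 3 ages did not overlap, and the higher level was already present in Middle cells. By pairs of ages, 28.4% of all genes lay wholly higher in Middle than in Young cells, and 28.4% in Aged than in Middle cells. The share with both was not computed. ZRT2 rose 2.99-fold in Middle over Young cells (log2 fold change 1.58, SE 0.35, adjusted p = 0.0373) and 3.95-fold in Aged over Young cells (1.98, SE 0.34, adjusted p = 0.00491). The Middle call was lost when libraries were scaled by their totals (adjusted p = 0.056), with 10 counts or more asked of each library (adjusted p = 0.057) and without the second Middle library (edgeR, adjusted p = 0.12). The Aged call was lost without the second Young library (edgeR, log2 fold change 1.73, adjusted p = 0.069). Between Aged and Middle cells ZRT2 differed by 0.41 on the log2 scale (95% interval −0.20 to 1.02, adjusted p = 0.38).

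**Figure D2:**
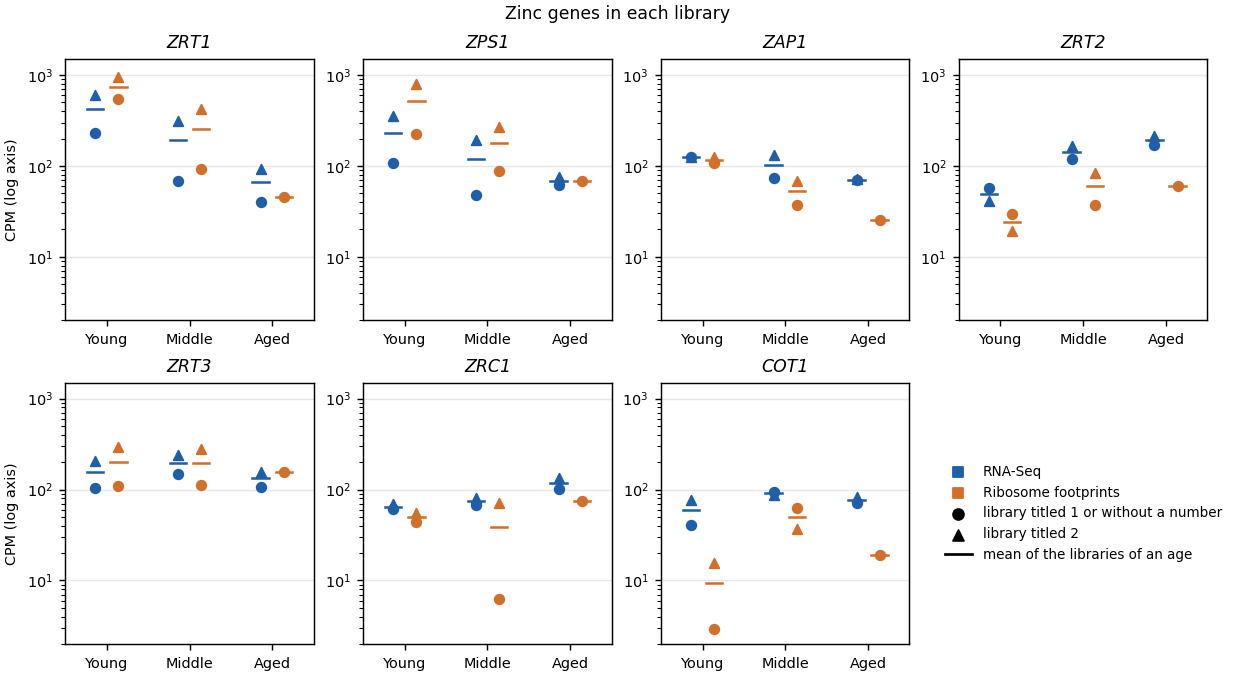
Level of each zinc gene in every library, in CPM on a log axis, for Young, Middle and Aged cells from left to right; blue points are RNA-Seq, orange points ribosome footprints, and short lines the mean of an age. The Aged points of ZRT1, ZPS1 and ZAP1 lie below both Young points in each assay, and those of ZRT2 above.

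ZAP1, the gene of the zinc-sensing activator itself, had 126 and 125 CPM of RNA in Young, 73.9 and 133 CPM in Middle and 70.1 and 71.7 CPM in Aged cells. Young libraries agreed closely, as did Aged libraries, and the groups of these ages did not overlap. Of all genes tested, 28.6% lay wholly lower in that comparison. The log2 fold change in Aged over Young cells was −0.83 (SE 0.32, 95% interval −1.54 to −0.12), with an unadjusted p of 0.027 and an adjusted p of 0.12 in edgeR's test, so it was not called. In Middle cells it was −0.24 (adjusted p = 0.71).

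ZPS1 RNA was at 107 and 351 CPM in Young, 47.7 and 193 CPM in Middle and 62.5 and 75.5 CPM in Aged cells. Both Aged libraries were below both Young libraries, and Middle cells overlapped both. ZPS1 fell in Aged cells to a level 3.34-fold lower than in Young cells (log2 fold change −1.74, SE 0.48, adjusted p = 0.0368). This call was lost in a joint fit of the 3 ages (edgeR, adjusted p = 0.13), with library totals as the scale (adjusted p = 0.0671) and without the second Young library, where the log2 fold change was −0.63 (edgeR, adjusted p = 0.35). In Middle over Young cells ZPS1 differed by −0.86 (SE 0.64, adjusted p = 0.45), and without the second Middle library by −2.29 (edgeR, adjusted p = 0.0020).

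Vacuolar transporters showed no RNA change that was called at either age. ZRC1 had 60.7 and 69.0 CPM in Young, 66.8 and 81.1 CPM in Middle and 102 and 134 CPM in Aged cells. Aged cells lay above both other ages without overlap, while 29.8% of all genes did so over Young and 28.4% over Middle cells. The log2 fold change of ZRC1 over Young cells was 0.86 in Aged (95% interval 0.12 to 1.60, adjusted p = 0.12) and 0.19 in Middle cells (adjusted p = 0.76). COT1 had 40.5 and 77.4 CPM in Young, 93.0 and 88.2 CPM in Middle and 72.0 and 83.2 CPM in Aged cells, with log2 fold changes over Young cells of 0.58 in Middle (adjusted p = 0.38) and 0.37 in Aged cells (adjusted p = 0.59). ZRT3, the exit path from the vacuole, had 103 and 206 CPM in Young, 148 and 240.4 CPM in Middle and 108 and 157 CPM in Aged cells. Its ages overlapped throughout, and its log2 fold changes were 0.33 in Middle (95% interval −0.50 to 1.16) and −0.23 in Aged cells (−1.05 to 0.59).

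Of the RNA comparisons, that of Middle and Young cells called 1 of the 7 genes higher and 0 lower, against 3.30% higher and 1.79% lower of 5818 genes tested. In Aged over Young cells 1 was higher and 2 lower, against 8.34% higher and 5.14% lower of 5897 genes. Without overlap, 2 of the 7 lay above and 3 below Young cells there, beside 29.8% and 28.6% of all genes. In Aged over Middle cells 0 were called, where 4.71% of 5674 genes were higher and 2.96% lower, and none of the 7 had an unadjusted p under 0.05 in edgeR's test or was called by DESeq2. With the number in the titles as a replicate block ZRT1 was lower in Aged than in Middle cells (−1.44, adjusted p = 1.1e-05) and in Middle than in Young cells (−1.28, adjusted p = 0.043). The largest differences there were those of ZRT1 (−1.50, SE 0.74, adjusted p = 0.27), ZPS1 (−0.86, adjusted p = 0.37) and ZRC1 (0.68, adjusted p = 0.20), with ZAP1 at −0.58, ZRT3 at −0.55 and COT1 at −0.20. The median log2 fold change of the 7 genes was 0.19 in Middle and −0.23 in Aged over Young cells, beside −0.02 in each over all genes tested.

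**Figure D3:**
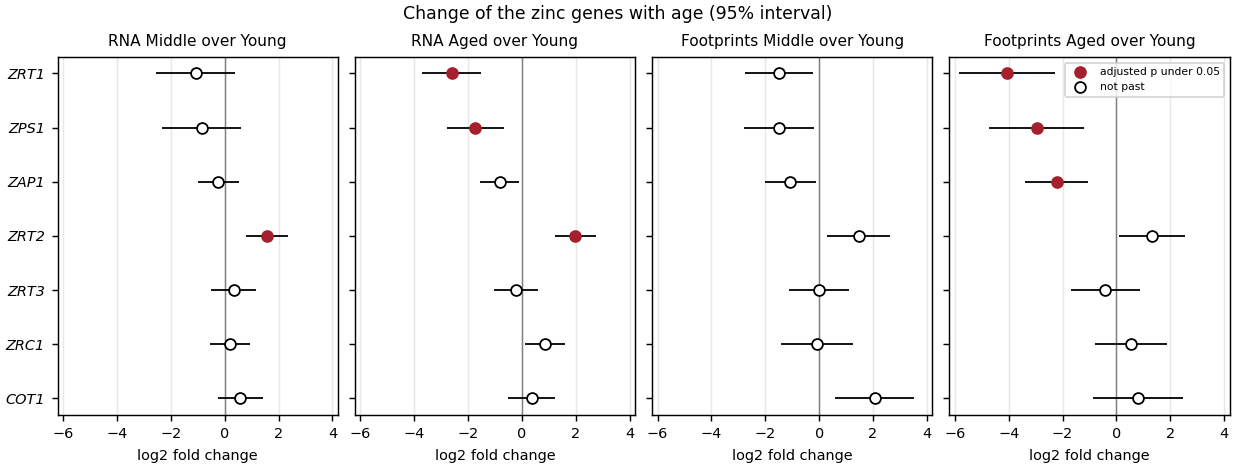
Log2 fold change of each zinc gene over Young cells with its 95% interval from edgeR, in panels for RNA of Middle cells, RNA of Aged cells, footprints of Middle cells and footprints of Aged cells; filled red points passed an adjusted p of 0.05. ZRT1 and ZPS1 lie left of 0 in all 4 panels, and filled points appear on the right only for ZRT2 RNA.

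Ribosome footprints count the ribosomes on all copies of a gene's message, so they also fall when its RNA falls. In Aged cells footprints fell for ZRT1, ZPS1 and ZAP1. ZRT1 had 544 and 947 CPM of footprints in Young, 93.6 and 421 CPM in Middle and 45.6 CPM in the single Aged library. Middle libraries lay below both Young libraries, and the Aged library was the lowest of the 5. The Aged over Young log2 fold change was −4.06 (SE 0.84, adjusted p = 0.00552), 16.7-fold lower. The test for Aged cells takes its spread from the Young and Middle libraries and assumes that the lone Aged library varies as they do. ZPS1 footprints were at 225 and 801 CPM in Young, 87.3 and 268 CPM in Middle and 67.9 CPM in Aged cells, with a log2 fold change in Aged over Young cells of −2.96 (SE 0.83, adjusted p = 0.0352), or 7.80-fold lower. ZAP1 footprints were at 108 and 126 CPM in Young, 37.4 and 67.6 CPM in Middle and 25.5 CPM in Aged cells, and were 4.67-fold lower in Aged than in Young cells (−2.22, SE 0.56, adjusted p = 0.0175). When each library had to hold 10 counts or more, the ZPS1 call was lost (edgeR, adjusted p = 0.065), and with DESeq2 that of ZAP1 (adjusted p = 0.060). The 10 genes of daughter cells summed to 1102 and 478 CPM of footprints (Young), 892 and 606 (Middle) and 1759 (Aged). With the single Aged library, 5 of them were called higher and 0 lower than in Young cells, against 5.57% and 4.64% of all genes. The calls of DSE1 and DSE3 were lost with DESeq2 (log2 fold changes 1.64 and 1.77). The part of the 10 genes was not tested.

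ZRT2 footprints were at 29.2 and 19.2 CPM in Young, 37.4 and 83.0 CPM in Middle and 59.4 CPM in Aged cells, from 6 to 56 counts per library. Every Middle and Aged value was above both Young values. The log2 fold changes over Young cells were 1.46 in Middle (SE 0.55, adjusted p = 0.11) and 1.30 in Aged cells (SE 0.58, adjusted p = 0.17) and were not called. COT1 footprints were few, with counts of 1 and 9 (Young), 10 and 19 (Middle) and 18 (Aged), and its log2 fold change in Middle over Young cells was 2.07 (SE 0.69, unadjusted p of 0.0091 and adjusted p = 0.071 in edgeR's test). ZRC1 footprints numbered 15 and 32 (Young), 1 and 37 (Middle) and 71 (Aged), and its shallowest library, the first of Middle cells, was under the floor. ZRT3 footprints were at 108 and 293 CPM in Young, 112 and 282 CPM in Middle and 157 CPM in Aged cells and overlapped throughout. For Aged over Young footprints the log2 fold changes of the vacuolar transporters were −0.41 for ZRT3, 0.54 for ZRC1 and 0.81 for COT1, and in Middle over Young footprints those of ZRT3 and ZRC1 were −0.0083 and −0.080, none of them called.

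Of the 7 genes, 0 were called for footprints in Middle over Young cells, where 4.22% of 4167 genes were higher and 6.22% lower. Unadjusted, p was under 0.05 for 5 of them: ZRT1 (−1.49), ZPS1 (−1.49) and ZAP1 (−1.07) were lower there, and ZRT2 (1.46) and COT1 (2.07) higher. Which of them passed the adjusted threshold depended on the setting, with 2 higher and 2 lower when no filter on low counts was applied. Without the first Young library 2 were lower, and without the first Middle library or the second Young library 1 was higher. With the replicate block ZRT1 (−1.77, adjusted p = 0.0066) and ZPS1 (−1.51, adjusted p = 0.012) were lower and COT1 (2.06, adjusted p = 0.028) higher. In Aged over Young cells 0 were higher and 3 lower, against 5.57% higher and 4.64% lower of 4635 genes.

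Translational efficiency sets ribosomes against message, and its change with age was tested by an age-by-assay term fitted to both kinds of library with edgeR. No gene passed an adjusted p of 0.05 in Middle cells (0 of 5334 genes, 0.00%, and 172 at an unadjusted p under 0.05) or in Aged cells (0 of 5757 genes, 0.00%, and 285 unadjusted). DESeq2 called 0 genes in Middle and 21 in Aged cells, none of them among the 7. RNA and footprints of Young and Middle cells came from shared lysates. With each lysate as a block, 9 genes were higher and 48 lower in Middle cells, again none of the 7. At this depth a difference could have gone undetected, as the intervals show. ZAP1 had the smallest p of the 7 genes in Aged cells, with a log2 change of −1.37 (95% interval −2.63 to −0.10, unadjusted p of 0.036, adjusted p = 0.94, edgeR). Its footprint level over its RNA level was 0.859 and 1.01 in Young and 0.507 and 0.508 in Middle lysates, and 0.359 in Aged cells over the mean of both RNA libraries. The 3 ages did not overlap, and the single Aged ratio was lowest, which was also true of ZRT1 and ZPS1. ZPS1 had ratios of 2.11 and 2.28 (Young), 1.83 and 1.39 (Middle) and 0.984 (Aged). The share of all genes with this order was not computed. ZRT1 had ratios of 2.38 and 1.56 (Young), 1.35 and 1.35 (Middle) and 0.686 (Aged), with a log2 change of −1.41 in Aged over Young cells (95% interval −4.54 to 1.71). The value was −1.19 for ZPS1 (−4.24 to 1.86), −0.64 for ZRT2 (−2.01 to 0.74), −0.28 for ZRC1 and −0.14 for ZRT3. In Middle over Young cells it was −0.76 for ZAP1 (−1.96 to 0.44), −0.55 for ZPS1, −0.33 for ZRT1, −0.27 for ZRT3, −0.20 for ZRC1 and −0.04 for ZRT2. COT1 was the one gene of the 7 with a positive value in both ages, 1.56 in Middle (−0.17 to 3.29) and 0.49 in Aged cells (−1.28 to 2.26).

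Across all 11 libraries, ZRT1 was compared with 5390 genes of at least 20 counts on average in RNA-Seq, by the Pearson correlation of log2 CPM centered within each assay. The points share their libraries and depth, so r is a description. The 5 most similar genes were FLC1 (r = 0.957), OSW7 (0.950), CUL3 (0.948), ZPS1 (0.940) and RKM2 (0.937), and ZAP1 ranked next (0.929). ZRT3 followed ZRT1 less closely (r = 0.532), ZRC1 hardly (0.07), and COT1 (−0.34) and ZRT2 (−0.59) ran against it.

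A list of 18 further genes described as Zap1 targets was also counted, and every call on it in the comparisons below was a decrease. The count of those called higher depended on the setting: in Middle over Young RNA the count was 0, but 1 with the replicate block, 1 without the second Middle library and 3 without the second Young library. In Aged over Middle RNA it was 0, but 1 with no filter, 1 with 10 counts in every library and 1 with the block. In Aged over Young cells, 5 of the 17 tested had lower RNA, 0 had higher RNA, and 12 did not pass, against 5.14% lower and 8.34% higher over all genes, with a median log2 fold change of −0.86 beside −0.02 over all genes tested. FET4, a low-affinity iron transporter that also carries zinc, was at 486 and 520 CPM in Young, 222 and 174 CPM in Middle and 43.6 and 59.7 CPM in Aged cells. The 3 ages were well apart, and FET4 changed by −3.26 in Aged (SE 0.33, adjusted p = 4.9e-04) and by −1.37 in Middle over Young cells (SE 0.29, adjusted p = 0.0353). MCD4, an enzyme of GPI anchor synthesis, had 484 and 681 CPM in Young, 186 and 192 CPM in Middle and 51.2 and 71.7 CPM in Aged cells (−3.23 in Aged over Young cells, SE 0.36, adjusted p = 6.3e-04). ADH4, an alcohol dehydrogenase of the ZRT1 end of chromosome VII, had 287 and 472 CPM in Young, 119 and 155 CPM in Middle and 64.4 and 42.5 CPM in Aged cells (−2.88, SE 0.37, adjusted p = 0.00145). Neither Aged value of these 3 genes reached any Young or Middle value. In RNA, 28.6% of all genes tested lay wholly lower in Aged than in Young cells, and 28.7% in Aged than in Middle cells. The share lower than both was not computed.

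YOR387C, whose product is uncharacterized, had 16 and 222 RNA counts (Young), 6 and 8 (Middle) and 3 and 4 (Aged), a log2 fold change in Aged over Young cells of −3.87 (SE 0.81, adjusted p = 0.0115). It passed the filter on low counts in that comparison through the Young libraries and could only be called lower. ICY2, the fifth gene, had 121 and 107 counts (Young), 166 and 94 (Middle) and 14 and 8 (Aged). Scaled for depth, ICY2 was at 136 and 39.3 CPM in Young, 396 and 66.9 CPM in Middle and 26.5 and 5.08 CPM in Aged cells. Its log2 fold change in Aged over Young cells was −2.73 (SE 0.77, adjusted p = 0.0391), a call that was lost in the joint fit of 3 ages (adjusted p = 0.14) and without either Young library or the second Aged one (adjusted p of 0.069 to 0.36). In Middle over Young cells 3 of 17 were lower (FET4, MCD4 and ADH4), against 1.79% of all genes, and 0 higher. In Aged over Middle cells 5 of 16 were lower, against 2.96% of all genes, namely FET4 (−1.88), MCD4 (−1.58), ADH4 (−1.41), URA10 (−2.05) and CKI1 (−1.03), and 0 higher, and of these FET4 alone was called whichever library was left out. Without the second Young library, FET4 and MCD4 were still called in Aged over Young cells, while YOR387C, ADH4 and ICY2 were not. In Middle over Young cells FET4 and MCD4 were no longer called without either Middle library (adjusted p of 0.052 to 0.18), and ADH4 not without the first (adjusted p = 0.15). With library totals as the scale FET4 (adjusted p = 0.053) and ADH4 (0.070) were not called there, and without the robust option ADH4 was not (0.053).

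**Figure D4:**
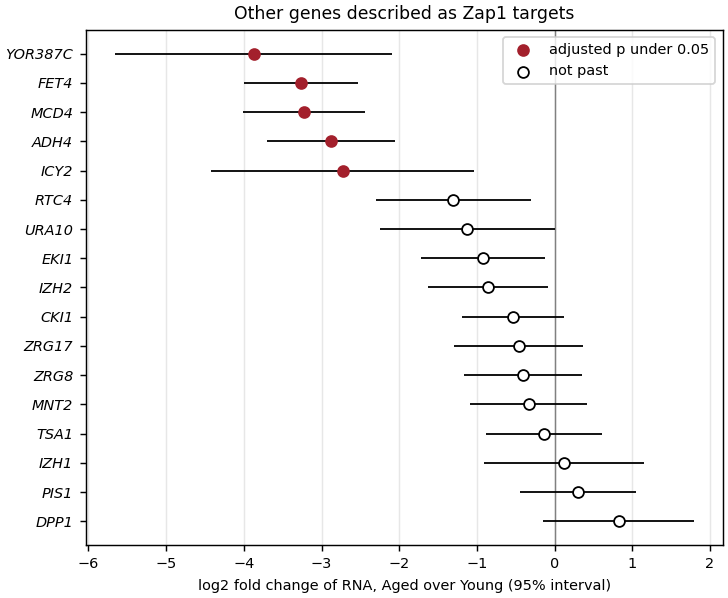
Log2 fold change of RNA in Aged over Young cells, with its 95% interval from edgeR, for the 17 tested genes of the list of further Zap1 targets. Filled red points passed an adjusted p of 0.05; all 5 filled points lie left of 0, between −3.87 and −2.73.

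In footprints the calls were again decreases, with 6 of 16 genes lower in Middle and 7 of 17 lower in Aged than in Young cells, against 6.22% and 4.64% lower over all genes, 0 higher in either, and medians of −0.54 in Middle and −1.46 in Aged cells beside −0.01 and −0.02 over all genes. Without the second Middle library 0 of the 6 were called in Middle over Young cells (edgeR, adjusted p of 0.092 to 0.20). FET4 footprints numbered 48 and 98 (Young), 7 and 22 (Middle) and 3 (Aged), where its Young mean was 48.9 times its Aged level (exact Poisson interval of the Aged count, 16.7 to 237, which covers counting error of that library only and not the spread between replicates). VEL1 and YOR387C had 0 footprints in the Aged library. Against a floor of 3 counts there, VEL1 was at least 18.9-fold and YOR387C at least 41.1-fold lower in Aged than in Young cells by the Young mean. Against the first Young library alone these bounds were 11.02-fold and 20.2-fold, and against the second 26.8-fold and 61.9-fold. VEL1 had 0 RNA counts in 5 of the 6 RNA-Seq libraries and was not tested for RNA. These genes are 92.4% identical over 621 bases, and 69 of the 594 stretches of 28 bases in each also occur elsewhere in the genome, so their counts may be shared. Both are among the 6 and the 7 genes called lower in footprints and are not independent decreases. In the Middle libraries VEL1 had 1 and 0 footprint counts and YOR387C 2 and 2. Both thus passed the filter on low counts through the Young libraries and could only be called lower. Of the 18 listed genes, 6 (33.3%) had a match to the Zap1 element with at most 1 mismatch before the start codon. MCD4 had an exact match, while FET4, ADH4, YOR387C and ICY2 had none in the 500 bases searched.

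Zinc transporters outside the 7 genes were FET4, described above, ZRG17 and MSC2, which together bring zinc into the endoplasmic reticulum, and YKE4, a transporter of the same membrane. ZRG17 (−0.46), MSC2 (0.26) and YKE4 (0.76) were not called in Aged over Young RNA. Of 12 zinc-containing enzymes, 0 had higher and 1 had lower RNA in Aged over Young cells, against 8.34% and 5.14% of all genes. This was PMI40, mannose-6-phosphate isomerase, at 313 and 222 CPM in Young, 217 and 127 CPM in Middle and 83.4 and 66.7 CPM in Aged cells (−1.85, SE 0.33, adjusted p = 0.0056; 0.052 without the second Young library). PHO8, the vacuolar alkaline phosphatase, was higher in Middle than in Young cells (1.46, SE 0.35, adjusted p = 0.0439) and lower in Aged than in Middle cells (−1.05, SE 0.27, adjusted p = 0.0478), and both calls were lost without edgeR's robust option (adjusted p = 0.058 and 0.051). The first was also lost with library totals (edgeR, adjusted p = 0.078), with 10 counts in every library (0.061) and without the first Middle (1.35) or first Young library (1.10). The second was also lost in the joint fit (edgeR, adjusted p = 0.096) and without the second Aged (−0.82), first Middle (−0.91) or second Middle library (−1.19). SOD1, copper-zinc superoxide dismutase, had higher footprints in Middle than in Young cells (1.78, SE 0.53, adjusted p = 0.0461), a call lost with DESeq2's size factors (adjusted p = 0.053), without the robust option (0.055) and without either Middle library or the first Young library (0.18 to 0.26). Footprints of PMI40 were at 1047 and 543 CPM in Young, 250 and 172 CPM in Middle and 165 CPM in Aged cells. They were called lower at both ages. The Middle call was lost without either Middle library (−2.19 and −1.68), and the Aged call without the second Middle library (−2.34). Of 11 enzymes tested for footprints, 1 was higher and 1 lower in Middle cells, against 4.22% and 6.22% of all genes. In Aged cells 0 were higher and 1 lower, against 5.57% and 4.64%. ADH1 and ADH2 share 199 of their 1020 stretches of 28 bases, and their counts are uncertain.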

How the data were processed

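RNA-Seq and ribosome footprint reads of Young, Middle and Aged yeast were counted by the authors. The deposited values are raw counts per coding sequence, 1 table per library, with a column for the length in codons, which was 10 codons under the coding length. Per the methods and the submitters' processing notes, reads were trimmed with Fastp, cleared of non-coding RNA and aligned with STAR 2.7.0a to S288C R64 (sacCer3), and base calls came from CASAVA 1.8. The annotation release, the use of strand and multi-mapped reads are not given in the sources used here.

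Ages were compared with edgeR 4.0.16 in R 4.3.3 with TMM scaling, its default filter on low counts, and quasi-likelihood tests with the robust option, on the libraries of each comparison alone. The Aged footprint comparison included the Middle libraries to estimate spread. Alternatives were DESeq2 1.42.0, other scaling, filters and fits, a block on the number in the titles, and leaving out each library. The fit without the robust option was added after seeing the data. Scripts were tested on simulated data. Library totals ranged from 168247 to 2585717 counts.

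RNA and footprint libraries of 1 age and number came from the same lysate, and their deviations from the group means correlated at r = 0.42 in Young and 0.25 in Middle libraries over 5757 genes. Members and lists were chosen with earlier results of these data known. All 7 members are named, and of each other list up to 6 genes past a test of RNA, by smallest p. ICY2, VEL1, SOD1, ZRG17, MSC2 and YKE4 were named after their values were seen. ICY2 was matched through its older name. Coding sequences and element matches were read from the RefSeq R64 genome, in which 5989 of the 6668 genes were found.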

Additional observations from a re-analysis of the deposited data

How the results depend on the processing

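Members' values came out on the same side of 0 and of the threshold for 548 of 612 values, counted over genes, comparisons and alternatives, with 37 changes of sign, 17 calls gained and 10 lost. The counts of the 7 genes moved as follows. In RNA of Middle over Young cells 0 were higher when libraries were scaled by totals and 0 with 10 counts in every library. In RNA of Aged over Young cells 1 was lower with totals and 1 in the joint fit. In footprints of Middle over Young cells 2 were higher and 2 lower with no filter, and in footprints of Aged over Young cells 1 was lower with 10 counts in every library. Under these settings signs changed for differences near 0: in Middle over Young footprints ZRT3 was 0.14 with totals and 0.012 with no filter, and ZRC1 0.11 with totals, and ZRT2 translational efficiency in Middle cells was 0.11 with totals. The other changes of sign came when a library was left out, and they included larger differences. The causes were not tested.

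As each library was left out in turn, 0 to 1 genes were higher and 0 to 2 lower in RNA of Middle over Young cells, 0 to 1 and 0 to 2 in Aged over Young cells, 0 to 2 lower in Aged over Middle cells, and 0 to 1 and 0 to 2 in Middle over Young footprints. The log2 differences that changed sign ranged as follows. In Middle over Young RNA, ZRT3 ran from −0.10 to 0.92, ZAP1 from −0.78 to 0.11 and ZPS1 from −2.29 to 0.26. In Aged over Young RNA, ZRT3 ran from −0.63 to 0.36. In Aged over Middle RNA, ZRT1 ran from −2.30 to 0.0014 and ZPS1 from −1.47 to 0.54. Among Middle over Young footprints, ZRT3 ran from −0.88 to 0.94 and ZRC1 from −2.97 to 0.50, and in Aged over Young footprints ZRT3 ran from −0.95 to 0.46. For translational efficiency in Middle cells, ZRT1 ran from −1.96 to 1.20, ZRT2 from −0.96 to 0.25, ZRT3 from −1.25 to 0.58, ZRC1 from −3.25 to 0.28 and ZPS1 from −1.75 to 0.87. In Aged cells ZRT3 ran from −0.72 to 0.78, COT1 from −0.067 to 2.32 and ZPS1 from −2.29 to 0.022. Where 1 library of an age was left, it was assumed to vary like the others.

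Young and Middle cells were fractions of a beading reaction, but the sources used here do not say that a number in the titles marks the same culture. Same-numbered RNA libraries deviated together at r = 0.21 for Young and Middle, 0.042 for Young and Aged and 0.32 for Middle and Aged cells, and footprints at 0.16. With that number as a replicate block, 1 gene of the 7 was lower in Middle over Young RNA (ZRT1, −1.28, adjusted p = 0.043), 1 in Aged over Middle RNA (ZRT1, −1.44, adjusted p = 1.1e-05), and in Middle over Young footprints 1 was higher (COT1, 2.06) and 2 were lower (ZRT1, −1.77, and ZPS1, −1.51). No paired analysis was possible for Aged footprints or their translational efficiency because the title of that library carries no number.

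Over all genes, the block gave 333 higher and 197 lower in Middle over Young RNA (192 and 104 without it), 466 lower in Aged over Young RNA (303), 784 and 634 in Aged over Middle RNA (267 and 168), 291 and 408 in Middle over Young footprints (176 and 259), and 1 and 9 for translational efficiency in Middle cells (0 and 0). For Middle over Young RNA, totals gave 91 and 38, 10 counts in every library 95 and 54, and no robust option 123 and 50. For Middle over Young footprints, no filter gave 268 higher, no robust option 114 higher, 10 counts in every library 167 lower and DESeq2 172 lower. In Aged over Young footprints, 10 counts gave 158 higher and DESeq2 130 and 134 (258 and 215). Leaving out the second Young library left 54 higher and 19 lower genes in Aged over Young RNA. COT1 and ZRC1 footprints had as few as 1 count in a library.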
